A study of Mus musculus with 18 samples.

Results

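Ovarian surface epithelium genes and simple-epithelium keratin genes were followed in cultured mouse ovarian follicles. The 10 genes, Muc16, Msln, Upk3b, Upk1b, Lrrn4, Lgr5, Krt7, Krt8, Krt18 and Krt19, were taken by name out of 18193 genes that had a probe set annotated to 1 symbol alone. Their 17 probe sets are 4 for Upk1b, 3 for Krt8, 2 each for Upk3b and Lgr5 and 1 for each other gene. Of these, 16 had a mean above the 50th percentile of all probe sets on the array, the exception being 1 of the 2 for Lgr5, and no intensity filter was applied, so that all 17 were tested. Where a gene had several, the probe set with the highest mean stands for it below.

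The ovary is covered by a single layer of mesothelium-like cells, the ovarian surface epithelium, which expresses mesothelial surface proteins together with keratins of simple epithelia. Keratins of type I (Krt18, Krt19) pair with keratins of type II (Krt7, Krt8) to form the intermediate filaments of such cells. Follicles freed by dissection can carry other ovarian cells. Granulosa cells, the somatic cells inside the follicle, bear the receptor for anti-Müllerian hormone (AMH). AMH is a growth factor that, like the BMPs, signals through SMAD1, SMAD5 and SMAD9.

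Preantral to small antral follicles came from female mice 6 to 8 weeks old, whose strain is written C57BL/6Ntac in the sample labels and C57BL/6Tac in the series design. Follicles of 7 mice were pooled, and each pool was divided over single-drop cultures with 0 (vehicle), 50 or 200 ng/mL of recombinant AMH. All cultures, the vehicle controls included, also contained FSH at 80 IU/L and LH at 10 IU/L. With 3 pools for 12 h and 3 others for 24 h there were 6 groups of 3 arrays, and replicates of the same number and time share a pool. Signal intensities below are on the authors' linear scale, and differences are on the scale of log2(signal + 16), which understates the change of low signals. In pooled RNA, fewer cells of a type and less RNA per cell cannot be told apart.

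The array of AMH 50 ng/mL at 12 h in replicate 3 is given apart and entered none of the main tests. Only the alternative fit with all 18 arrays included it. Its hybridisation controls averaged 28532, against 1441 to 3520 on the other 17 arrays, and its median correlation with the others, over probe sets, was 0.61. A second array of the same pool, AMH 200 ng/mL at 12 h in replicate 3, had the highest poly-A spike controls (4846) and hybridisation controls (3520) of the 17, and the lowest median correlation with the other 16 (0.92). It was kept, and the main values that rest on it are also given without it. The median signal of an array ranged from 18.0 to 36.5 over the 17 arrays, so values of Muc16, Lrrn4 and Lgr5 in this range are near the middle of the array.

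The sequences before the start sites of 4 members are shown because these genes mark the patterns that follow. Upk3b had the largest difference between times, Krt7 went with the surface genes across arrays, and Krt8 and Krt18, 23.9 kb apart on chromosome 15, went with each other. They are from RefSeq on build GRCm38.p6, and the promoter table used here matched 6 of the 10 genes. Each is the 250 bases just upstream of the annotated start, 5′ to 3′ on the gene's strand. The regions are chr5:136038246-136038495 (plus strand) for Upk3b, chr15:101412153-101412402 (plus strand) for Krt7, chr15:102004343-102004592 (minus strand) for Krt8 and chr15:102027966-102028215 (plus strand) for Krt18. Capitals mark matches, on either strand, to the letters of 6 motifs.
Upk3b: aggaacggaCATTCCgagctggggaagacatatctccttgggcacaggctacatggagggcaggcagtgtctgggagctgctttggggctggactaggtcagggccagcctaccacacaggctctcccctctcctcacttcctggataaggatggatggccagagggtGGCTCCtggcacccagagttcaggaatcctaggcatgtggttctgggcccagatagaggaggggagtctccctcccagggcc
Krt7: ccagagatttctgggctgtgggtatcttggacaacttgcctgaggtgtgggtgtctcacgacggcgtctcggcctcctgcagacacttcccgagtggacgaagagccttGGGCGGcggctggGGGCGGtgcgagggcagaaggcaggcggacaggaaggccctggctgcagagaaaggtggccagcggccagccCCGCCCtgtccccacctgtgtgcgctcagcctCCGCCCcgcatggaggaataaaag
Krt8: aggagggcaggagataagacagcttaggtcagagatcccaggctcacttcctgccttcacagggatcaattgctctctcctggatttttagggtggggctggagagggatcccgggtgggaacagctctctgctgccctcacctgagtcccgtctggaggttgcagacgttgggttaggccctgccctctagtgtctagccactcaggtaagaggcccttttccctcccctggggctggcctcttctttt
Krt18: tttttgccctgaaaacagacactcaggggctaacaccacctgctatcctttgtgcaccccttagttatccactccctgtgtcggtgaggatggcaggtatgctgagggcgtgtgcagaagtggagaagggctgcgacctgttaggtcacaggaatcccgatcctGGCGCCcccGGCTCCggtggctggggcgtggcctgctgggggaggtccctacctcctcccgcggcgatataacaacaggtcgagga
Shares below are of windows of this length for all 32851 promoters in the table. The TATA box was searched as TATAAA, found in 12.4% of them. The GC box was searched as GGGCGG, found in 32.7%. An AP-1 site was searched as TGANTCA, found in 6.75%, and a TEAD site as GGAATG, found in 12.6%. For SMAD1/5 the letters GGCGCC, found in 9.59%, were searched beside the letters GGAGCC, found in 26.0%. Krt7 held 4 GC box matches, at -141, -128, -56 and -24 from the start. Krt18 held 1 match to each SMAD1/5 motif, GGCGCC at -86 and GGAGCC at -77. Upk3b held 1 TEAD match at -241 and 1 match to GGAGCC at -82, and no letters of the 6 motifs were found in the Krt8 window. Such matches are letters in a window and not measured binding.

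At 24 h, all 17 member probe sets had lower fitted values with AMH than with vehicle at both doses, but none passed the test. For the 10 genes the median log2 difference was -0.69 at 50 ng/mL and -0.71 at 200 ng/mL, while the median of all 45037 probe sets was -0.02 and 0.00. Of all probe sets, 56.0% and 49.8% had fitted values below 0. In limma with Benjamini-Hochberg adjustment over all probe sets, 0 of 17 member probe sets were called at either dose. The background was also 0% of all probe sets in each, with 1648 and 977 at an unadjusted p below 0.05. Both doses were compared with the same 3 vehicle arrays, so their differences are not independent. Every vehicle array lay above every AMH array for 5 of 10 genes at 50 ng/mL (Muc16, Msln, Upk3b, Lgr5 and Krt7), against a background of 5.2% of all probe sets. At 200 ng/mL this held for 8 of 10 genes, the exceptions being Krt7 and Krt19, against 3.67%. Within pools, the AMH array was lower than its own vehicle array in every pool for 7 of 10 genes at 50 ng/mL (background 15.6%) and for 8 of 10 at 200 ng/mL (background 12.4%). The members were chosen with earlier results of these data known, so these counts are a description beside the background and not a test. The 10 genes also went together within pools, so they are not 10 separate results.

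**Figure D1:**
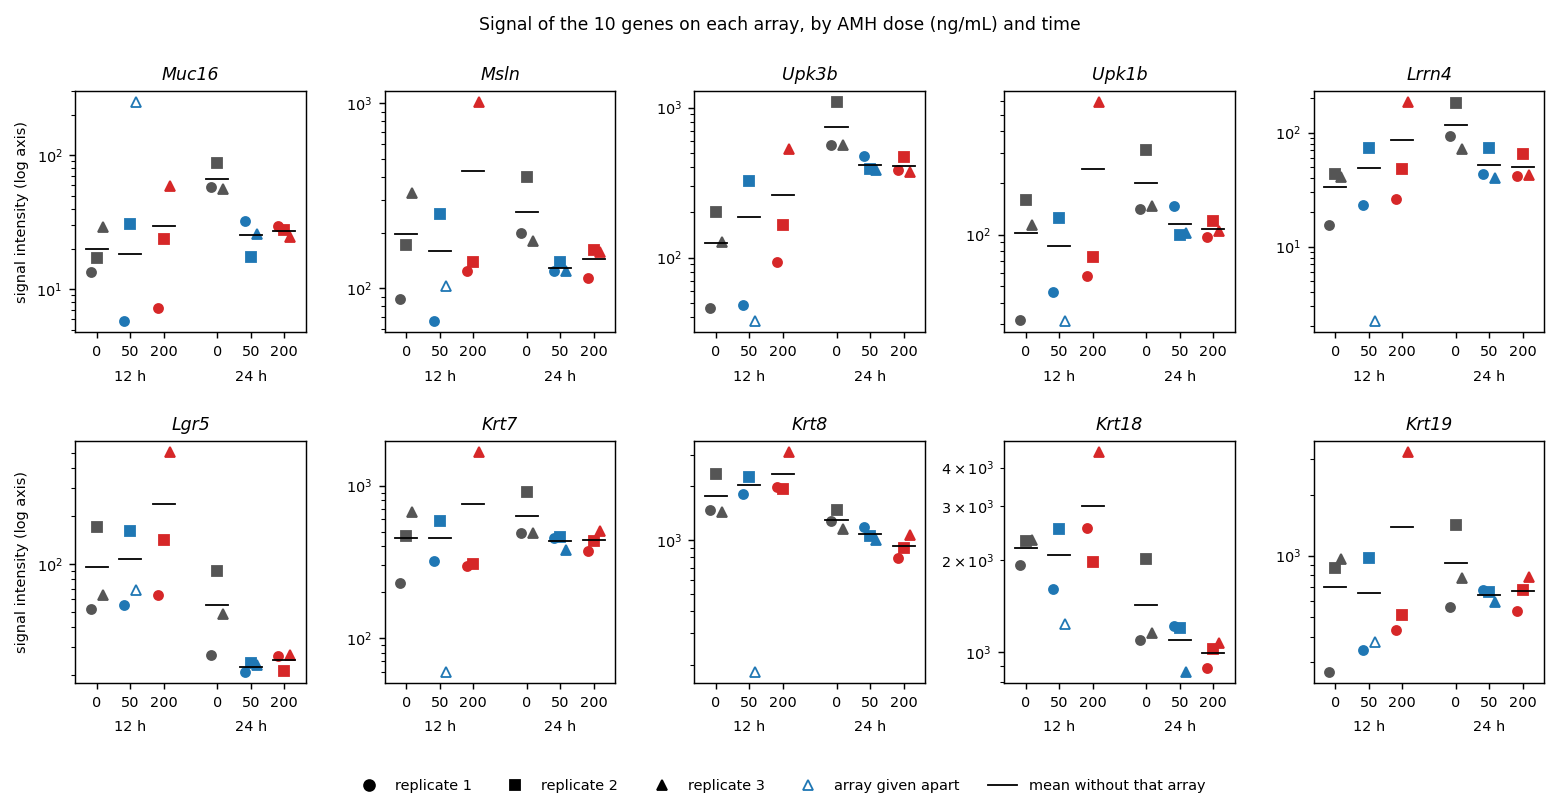
Signal intensity (log axis, each panel with its own range) of the 10 genes on all 18 arrays, by AMH dose in ng/mL and time; marker shapes are replicates, horizontal lines are group means without the open triangle, which is the array given apart. At 24 h the vehicle array of replicate 2 (square) is the highest of the 9 arrays in all 10 panels, and at 12 h the AMH 200 ng/mL array of replicate 3 (triangle) stands above the other arrays kept.

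The vehicle array of pool 2 at 24 h was the highest of the 9 arrays of that time for each of the 10 genes. By pool, the median difference of the 10 genes at 50 ng/mL was -0.17, -1.28 and -0.48 in pools 1, 2 and 3. At 200 ng/mL it was -0.50, -1.21 and -0.31. The sign was the same in all 3 pools, and pool 2 had the largest difference at both doses. Without pool 2 the fitted medians were -0.31 and -0.42.

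Muc16 and Msln encode cell-surface proteins of mesothelium that bind each other, the mucin CA125 and mesothelin. Muc16 read 57.4, 87.0 and 56.3 on the vehicle arrays of 24 h in replicates 1 to 3. With 50 ng/mL it read 32.4, 17.2 and 25.8, and with 200 ng/mL 29.5, 27.9 and 24.7. The groups did not overlap, and the AMH values were near the array medians. The fitted log2 difference was -1.01 (SE 0.27, 95% interval -1.58 to -0.43) at 50 ng/mL and -0.92 (SE 0.27, -1.49 to -0.34) at 200 ng/mL, both with an adjusted p of 1.00 in limma. Msln read 199, 398 and 181 with vehicle, 125, 139 and 124 with 50 ng/mL and 114, 161 and 157 with 200 ng/mL. All 6 AMH arrays lay below the lowest vehicle array. Its differences were -0.84 (SE 0.33) and -0.71 (SE 0.33).

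Upk3b and Upk1b encode uroplakins, membrane proteins of urothelial plaques that are also expressed in mesothelium. Upk3b read 560, 1096 and 564 with vehicle at 24 h, 474, 388 and 385 with 50 ng/mL and 382, 472 and 374 with 200 ng/mL. Neither dose overlapped the vehicle arrays, with differences of -0.74 (SE 0.35) and -0.77 (SE 0.35). Its standing probe set has a suffix that Affymetrix gives to sets shared by more than 1 transcript. The other Upk3b probe set, without that suffix, gave -0.70 and -0.67, and the correlation between the pair over 17 arrays was 0.98. Upk1b read 141, 310 and 147 with vehicle, 147, 98.7 and 102 with 50 ng/mL and 97.2, 120 and 105 with 200 ng/mL. Replicate 1 of the lower dose lay within the vehicle range. Differences were -0.64 (SE 0.44) and -0.72 (SE 0.44). The other 3 Upk1b probe sets ranged from -0.76 to -0.63 at 50 ng/mL and from -0.84 to -0.77 at 200 ng/mL. Some of these have a suffix that Affymetrix gives to sets that may cross-hybridise, which was not checked.

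Lrrn4 encodes a leucine-rich repeat membrane protein expressed in mesothelial cells. On the vehicle arrays of 24 h it read 92.9, 182 and 71.2, with 50 ng/mL 43.7, 73.5 and 40.1, and with 200 ng/mL 42.0, 65.2 and 42.8. The highest array at 50 ng/mL lay just above the lowest vehicle array, and those at 200 ng/mL lay below it. Lrrn4 was lower in all 3 pools at both doses, by fitted differences of -0.88 and -0.92 (SE 0.30 each). Lgr5 encodes a receptor for R-spondins, which strengthen Wnt signalling, and is known from stem cells and from the ovarian surface. It read 26.7, 90.6 and 48.7 with vehicle, 20.9, 24.0 and 23.0 with 50 ng/mL and 26.2, 21.3 and 26.7 with 200 ng/mL. The AMH arrays all lay at or below the lowest vehicle array to the digits shown, near the array medians. The fitted differences were -0.79 and -0.71 (SE 0.44 each). Its second probe set was dim, between 0.33 and 26.4 over all 18 arrays.

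Differences of the keratins at 24 h were smaller. The type II keratin Krt7 read 489, 911 and 487 with vehicle, 456, 463 and 377 with 50 ng/mL and 374, 434 and 507 with 200 ng/mL. Only the lower dose lay wholly below vehicle, and the fitted differences were -0.47 and -0.45 (SE 0.29 each). Krt8, the other type II keratin, read 1280, 1471 and 1150 with vehicle, 1176, 1056 and 1006 with 50 ng/mL and 794, 908 and 1072 with 200 ng/mL. Here the higher dose lay wholly below vehicle. Its differences were -0.26 and -0.49 (SE 0.21 each). Its other 2 probe sets, both with the suffix of possible cross-hybridisation, gave -0.24 and -0.24 at the lower dose. At the higher dose they gave -0.53 and -0.59. Krt18, the type I partner of Krt8, read 1095, 2019 and 1151 with vehicle, 1216, 1200 and 862 with 50 ng/mL and 889, 1023 and 1072 with 200 ng/mL. The pattern was that of Krt8, with no overlap at 200 ng/mL alone, and differences of -0.34 and -0.46 (SE 0.24 each). The type I keratin Krt19 read 562, 1415 and 781 with vehicle, 674, 661 and 593 with 50 ng/mL and 537, 676 and 789 with 200 ng/mL. Both doses overlapped vehicle, and the differences were -0.40 and -0.37 (SE 0.36 each).

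**Figure D2:**
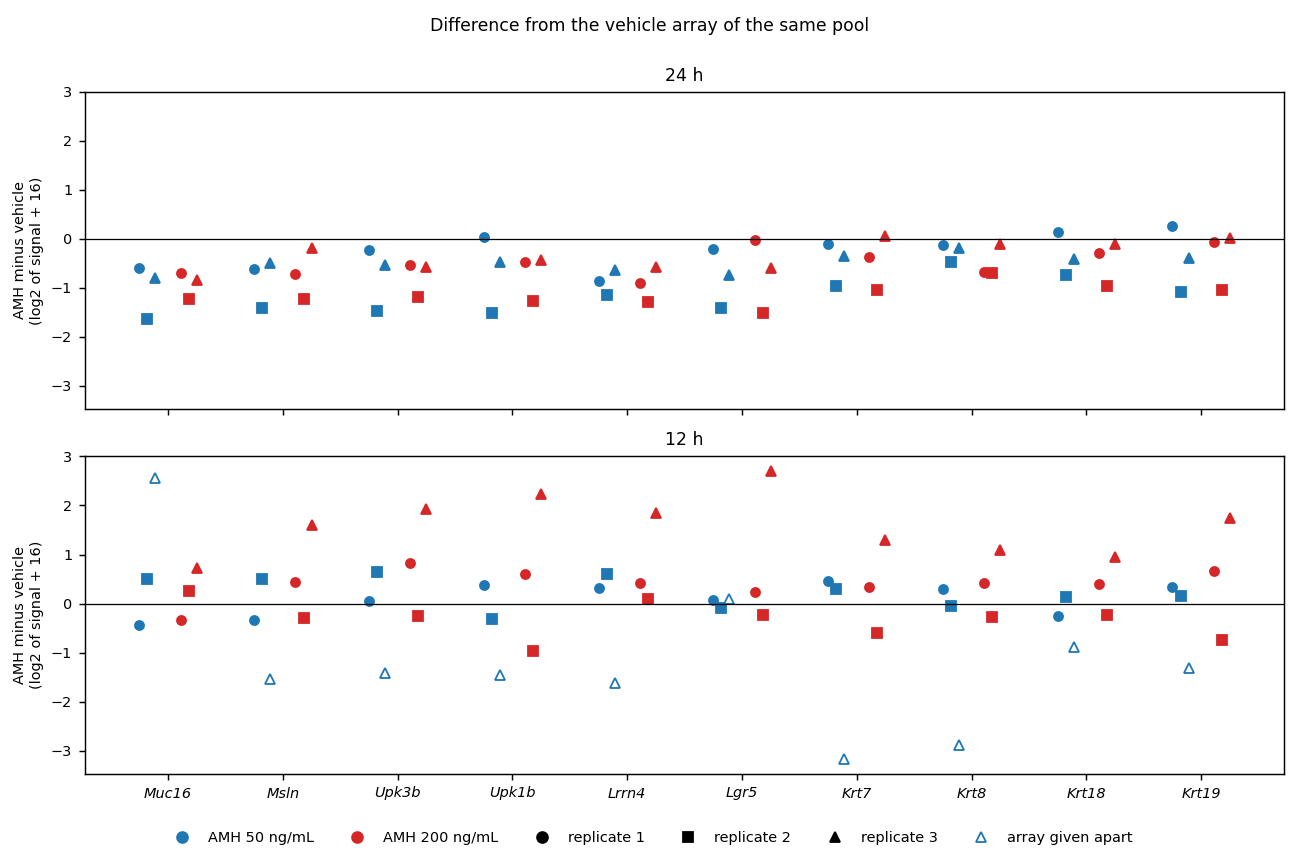
Difference in log2(signal + 16) between each AMH array and the vehicle array of its pool, for the 10 genes at 24 h (top) and 12 h (bottom); blue is 50 ng/mL, red 200 ng/mL, shapes are replicates and the open triangle is the array given apart. At 24 h most points lie below 0, with pool 2 (squares) lowest for 10 of 10 genes at both doses; at 12 h the points spread on both sides, with replicate 3 of 200 ng/mL highest among the arrays kept.

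The doses did not separate at 24 h. Between 200 and 50 ng/mL, 0 of 17 member probe sets were called by limma (background 0% of all probe sets, 1979 at an unadjusted p below 0.05). Fitted differences of the 10 genes ran from -0.23 (Krt8) to 0.13 (Msln). Their 95% intervals were wide, from -0.48 to 0.67 for Muc16 and from -1.03 to 0.86 for Upk1b, so differences of such a size between doses were not detectable here. The signs of these small differences depended on how the arrays were scaled or weighted and on single pools, for 8 of 10 genes. The spread between replicates did differ in size, as a description. The SD of log2 values over the 3 arrays of 24 h was lower with 50 ng/mL than with vehicle for 10 of 10 genes and lower with 200 ng/mL for 9 of 10, with medians of 0.57 for vehicle, 0.16 for 50 ng/mL and 0.20 for 200 ng/mL. This rested on replicate 2. Without it the medians were 0.071, 0.15 and 0.15, and the SD with AMH was the lower for 4 of 10 genes at 50 ng/mL and for 2 of 10 at 200 ng/mL.

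At 12 h the members did not show the lower values of 24 h, and the arrays of a group were further apart for most genes. The median SD of log2 values was 0.77 with vehicle and 1.27 with 200 ng/mL, the replicate 3 array included. At 24 h these medians were 0.57 and 0.20. In vehicle, Krt18 and Lrrn4 went the other way, with SDs of 0.15 and 0.51 at 12 h and 0.48 and 0.61 at 24 h. With 200 ng/mL, all 10 fitted differences were above 0, where 54.5% of all probe sets were below 0. The median of the 10 genes was 0.56 (all probe sets, -0.02), and 0 of 17 member probe sets were called (background 0% in limma, 4220 at an unadjusted p below 0.05). That median rested on 1 array: without the AMH 200 ng/mL array of replicate 3 it was 0.03. The medians by pool were 0.42, -0.26 and 1.66. No member had all 3 AMH arrays above all 3 vehicle arrays (0 of 10, background 2.74%), and 1 of 10 genes, Lrrn4, was higher in every pool (background 10.5%). Lrrn4 read 15.6, 43.3 and 40.4 with vehicle and 26.1, 47.6 and 186 with 200 ng/mL, a fitted difference of 0.79 (SE 0.30, adjusted p = 0.53 in limma). Without the replicate 3 array its difference was 0.26 (SE 0.24). Lgr5 read 52.3, 171 and 63.6 with vehicle and 63.9, 142 and 505 with AMH. Msln read 87.9, 173 and 328 with vehicle and 125, 138 and 1023 with AMH. For both, only replicate 3 left the vehicle range upwards.

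Other members had the same high array at 12 h. Upk3b read 46.0, 201 and 127 with vehicle and 94.1, 166 and 528 with 200 ng/mL, and Upk1b 32.0, 160 and 114 against 57.1, 73.5 and 594. Muc16 read 13.5, 17.1 and 29.1 with vehicle and 7.3, 23.5 and 58.6 with 200 ng/mL. Among keratins, Krt19 went from 268, 870 and 958 with vehicle to 430, 510 and 3229, and Krt7 from 229, 470 and 670 to 295, 306 and 1659. Krt8 read 1472, 2350 and 1443 against 1978, 1938 and 3106, and Krt18 1925, 2312 and 2319 against 2544, 1970 and 4488. In pool 2, the arrays at 200 ng/mL were below vehicle for 8 of 10 genes, Muc16 and Lrrn4 being the exceptions.

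At 50 ng/mL and 12 h, 2 arrays remained. Their values for replicates 1 and 2 were 5.8 and 30.8 for Muc16, 66.3 and 251 for Msln, 48.5 and 324 for Upk3b, 46.3 and 125 for Upk1b, 23.2 and 73.7 for Lrrn4 and 55.5 and 160 for Lgr5. For the keratins they were 320 and 584 for Krt7, 1816 and 2257 for Krt8, 1610 and 2529 for Krt18 and 343 and 969 for Krt19. Replicate 2 was the higher for all 10 genes, as replicate 2 of the vehicle arrays was higher than replicate 1 for all 10. Against vehicle, 0 of 17 member probe sets were called by limma (background 0%, 2583 at an unadjusted p below 0.05), and the median of the 10 genes was 0.44. Both pools were higher than vehicle for 4 of 10 genes (Upk3b, Lrrn4, Krt7 and Krt19), against a background of 20.9%. The medians within these pools were 0.18 and 0.23. The fit also uses the 200 ng/mL and vehicle arrays of replicate 3, and without the AMH 200 ng/mL array of that pool the fitted median was 0.10.

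On the array given apart, the same genes took other values. It read 251 for Muc16, above the vehicle range of 13.5 to 29.1 at 12 h, and 182 for Krt8, below the vehicle range of 1443 to 2350. Krt7 read 59.7, Krt18 1240, Upk3b 37.5, Upk1b 31.2 and Lrrn4 2.2, all below their vehicle ranges, while Msln (103), Lgr5 (69.0) and Krt19 (378) lay within them. With this array included, the fitted median of the 10 genes at 50 ng/mL and 12 h was -0.31.

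The change of the AMH difference between times was negative for all 10 genes at both doses, and none was called. Of all probe sets, 46.0% were below 0 at 50 ng/mL and 46.6% at 200 ng/mL. Both doses share the vehicle arrays, so their signs are not independent. The test of 24 h minus 12 h gave 0 of 17 member probe sets at 50 ng/mL and 0 of 17 at 200 ng/mL in limma (background 0% for each, with 1637 and 2733 at an unadjusted p below 0.05). Lrrn4 had the largest value at each dose, -1.60 (SE 0.46) at 50 ng/mL and -1.71 (SE 0.42) at 200 ng/mL, with adjusted p of 1.00 and 0.76. Without the AMH 200 ng/mL array of 12 h in replicate 3 these were -1.34 and -1.18. The median of the 10 genes was -1.12 at 50 ng/mL and -1.21 at 200 ng/mL, and -0.81 and -0.63 without that array.

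Between 12 and 24 h in vehicle medium the members split. Upk3b, Lrrn4 and Muc16 read higher at 24 h without overlap, while Krt8, Krt18 and Lgr5 had lower fitted values. The pools of each time are different mice, so time and pool cannot be separated within a pair. The 3 arrays of 24 h all lay above those of 12 h for 3 of 10 genes (background 10.9%). For 0 of 10 they all lay below (background 8%). They did so for 2 of the 3 Krt8 probe sets, those with the suffix of possible cross-hybridisation. None of the 17 member probe sets was called by limma with Benjamini-Hochberg adjustment, where 60 of 45037 probe sets were called (background 0.133%).

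**Figure D3:**
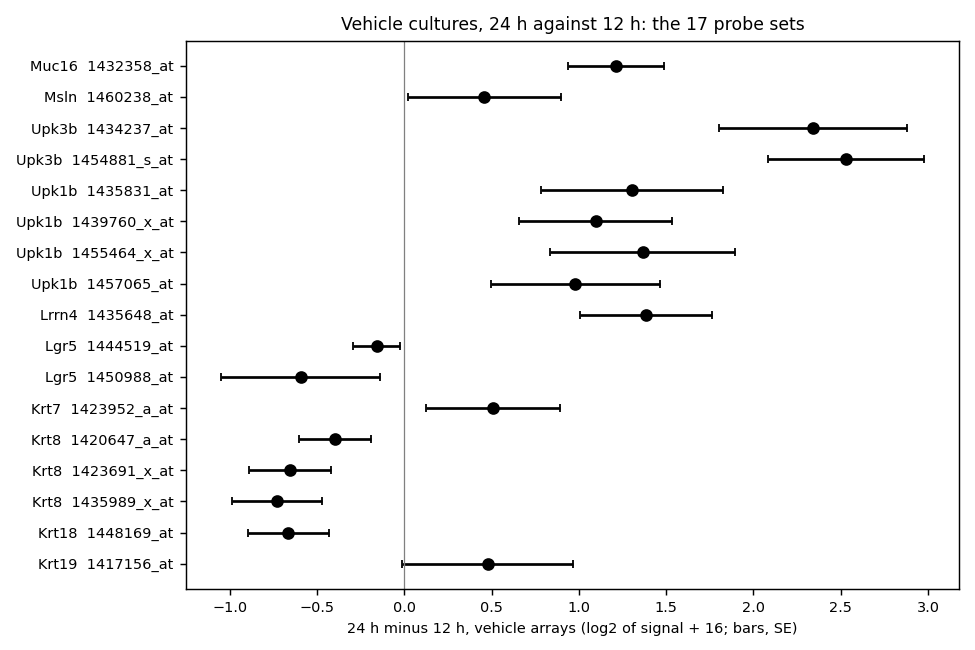
Fitted difference between vehicle arrays of 24 h and 12 h (log2 of signal + 16; points, limma estimates from 3 arrays against 3; bars, SE) for the 17 member probe sets, named by gene and probe set. Both Upk3b probe sets lie furthest to the right, at 2.34 and 2.53, and the probe sets of Krt8, Krt18 and Lgr5 lie to the left of 0.

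Upk3b, at 46.0, 201 and 127 on the 12 h arrays and 560, 1096 and 564 on the 24 h arrays, had a difference of 2.53 (SE 0.45, adjusted p = 0.080). Its other probe set gave 2.34. Upk3b passed the threshold in 4 alternative fits, for example with an adjusted p of 0.047 where all 17 arrays set the spread. In the others it did not, and over all settings its adjusted p in limma ran from 0.034 to 0.33. Lrrn4 differed by 1.38 (SE 0.38, adjusted p = 0.18) and Muc16 by 1.21 (SE 0.27, adjusted p = 0.12), from 12 h values near the array medians. Upk1b overlapped between times and differed by 0.98 (SE 0.48). Msln (0.46, SE 0.44), Krt7 (0.51, SE 0.38) and Krt19 (0.48, SE 0.49) had differences close to the size of their errors. Lower fitted values at 24 h were -0.67 for Krt18 (SE 0.23, adjusted p = 0.27), -0.40 for Krt8 (SE 0.21) and -0.59 for Lgr5 (SE 0.45). For Krt8 the arrays of 24 h read 1280, 1471 and 1150 and those of 12 h 1472, 2350 and 1443, so the highest array of 24 h fell between the 2 lower arrays of 12 h.

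Across the 17 arrays the 10 genes fell into 2 sets by correlation, a grouping made after the values were seen, from arrays that share pools and times. Krt7 and Krt19 had the highest of the 45 pairwise Pearson correlations of log2 values (0.97), and both correlated at 0.94 or 0.95 with Upk1b and Msln. Krt8 and Krt18 correlated at 0.92 and Lgr5 with them at 0.91 and 0.90. Between the sets the values ran from -0.30 (Upk3b and Krt8) to 0.66 (Msln and Lgr5), which overlapped the lowest pair within the first set, Msln and Upk3b (0.51). The median of all 45 pairs was 0.63. Without the AMH 200 ng/mL array of 12 h in replicate 3, over 16 arrays, that median was 0.67. Krt7 and Krt19 then correlated at 0.94, Krt8 and Krt18 at 0.89, Msln and Lgr5 at 0.33, Msln and Upk3b at 0.56 and Upk3b and Krt8 at -0.48. When the mean of each pool was subtracted, which removes differences between pools and times, the median was 0.87 and the lowest pair 0.57, so that within pools the 10 genes were high or low on the same arrays. Keratins and surface genes had like values there, with medians of 0.87 for pairs within the surface genes, 0.88 within the keratins and 0.87 between them. Leaving out the same array and the vehicle array of its pool, the 15 remaining arrays gave 0.82, 0.80 and 0.77, with a lowest pair of 0.51. The vehicle array of pool 2 at 24 h, the highest of that time for each gene, stayed in all of these values. No value for pairs of other genes is given beside them, so they do not set the members apart from other genes.

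**Figure D4:**
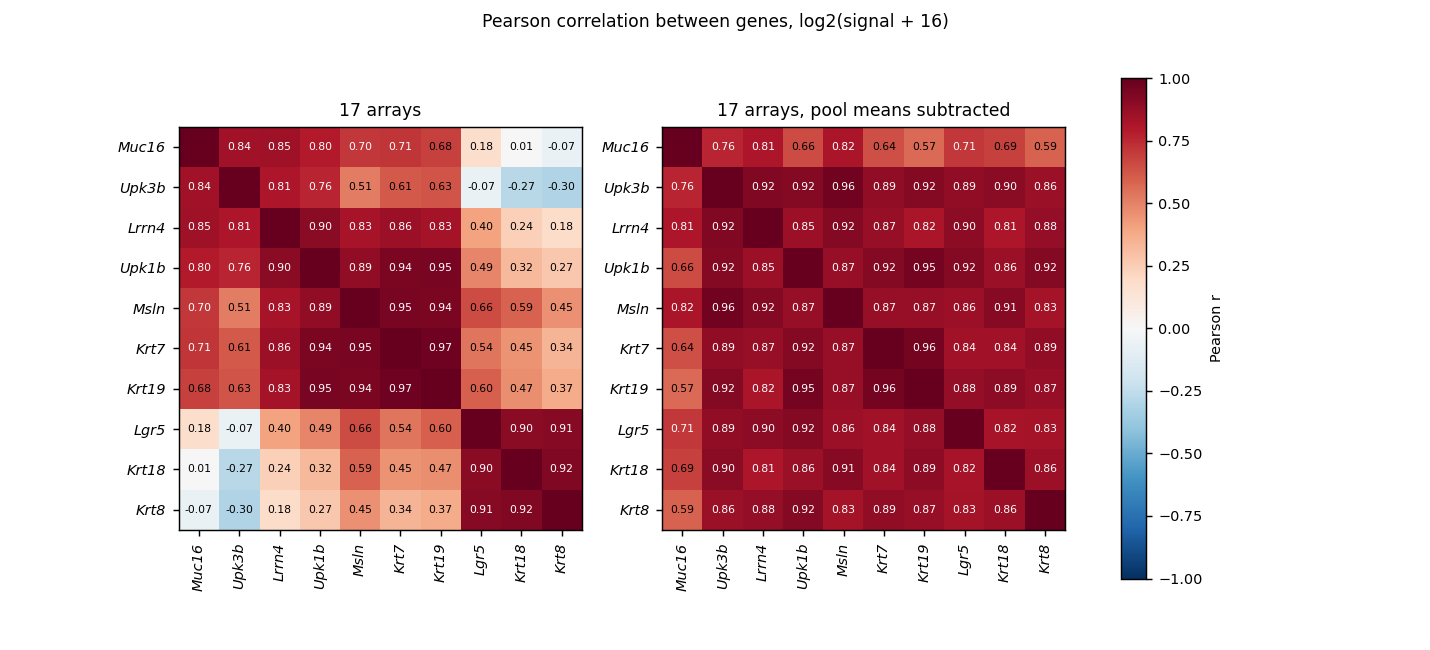
Pearson correlation between the 10 genes over 17 arrays in log2(signal + 16), as measured (left) and after subtracting each pool's mean (right); the colour scale runs from -1 to 1 and each cell gives the value. On the left Lgr5, Krt18 and Krt8 form a block with r of 0.90 to 0.92, and on the right all 45 pairs lie between 0.57 and 0.96.

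The genes most like the members were found among 20390 other probe sets with 1 symbol and a mean above the 50th percentile. Nearest to the mean of Muc16, Msln, Upk3b, Upk1b, Lrrn4 and Lgr5 were Tm4sf5 (r = 0.97), Stk26 (0.97), Plxna4 (0.96), Kcnab1 (0.96), Rspo1 (0.95), Lhx9 (0.95), Pkhd1l1 (0.95), Prr15l (0.95), Sugct (0.94) and Myrf (0.94), where the 99th percentile over all probe sets searched was 0.72. Tm4sf5 averaged 164 on the vehicle arrays of 24 h, 56.9 with 50 ng/mL and 78.9 with 200 ng/mL, and Rspo1, an R-spondin, averaged 122, 64.1 and 58.5. Nearest to the keratin mean were Gjb5 (0.97), a gap-junction connexin, Dmkn (0.97), Mpzl2 (0.96), Cxcl16 (0.94) and Epcam (0.94), an epithelial adhesion molecule, where the 99th percentile was 0.84. Gjb5 averaged 58.8 with vehicle at 24 h, 30.2 with 50 ng/mL and 25.7 with 200 ng/mL. Over the 16 arrays without AMH 200 ng/mL at 12 h in replicate 3, the same genes correlated at 0.91 (Sugct) to 0.97 (Stk26) with the surface mean and at 0.87 (Cxcl16) to 0.94 (Gjb5) with the keratin mean.

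Other markers of ovarian surface epithelium correlated with the members across arrays. These markers were chosen with earlier results of these data known. They include Rspo1, Lhx9 and Pkhd1l1, named above as near to the surface mean, and Dmkn and Epcam, named as near to the keratin mean. These markers are therefore not a separate line of evidence from the nearest genes, and the counts and correlations below share those genes. The mean log2 value of 13 such markers correlated with that of the 6 surface genes at 0.99 over 17 arrays, and at 0.98 without AMH 200 ng/mL at 12 h in replicate 3. At 24 h their fitted values were below 0 for 11 of 13 at 50 ng/mL (median -0.73) and for 12 of 13 at 200 ng/mL (median -0.62), where 56.0% and 49.8% of all probe sets were below 0, and none was called. Aldh1a1, a retinal dehydrogenase and the brightest of the 13, was an exception, with averages of 1359, 1489 and 1407 at 0, 50 and 200 ng/mL. Aldh1a2, a second enzyme of that family, averaged 642, 405 and 402, and Epcam 360, 162 and 217. At 12 h and 200 ng/mL, 11 of 13 had fitted values above 0 (median 0.41), with the highest sum of any array kept, 9198, in replicate 3. Without that array 11 of 13 lay below 0, with a median of -0.092. Between times in vehicle, 10 of 13 were higher at 24 h (median 0.71). In summed signal, the 13 markers ranged from 3270 to 5299 on the vehicle arrays of 24 h, 2776 to 3253 with 50 ng/mL and 2879 to 3205 with 200 ng/mL. The 6 surface genes summed to 1068 to 2164, 700 to 842 and 692 to 867 on the same arrays, and the 4 keratins to 3426 to 5815, 2838 to 3522 and 2593 to 3440.

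**Figure D5:**
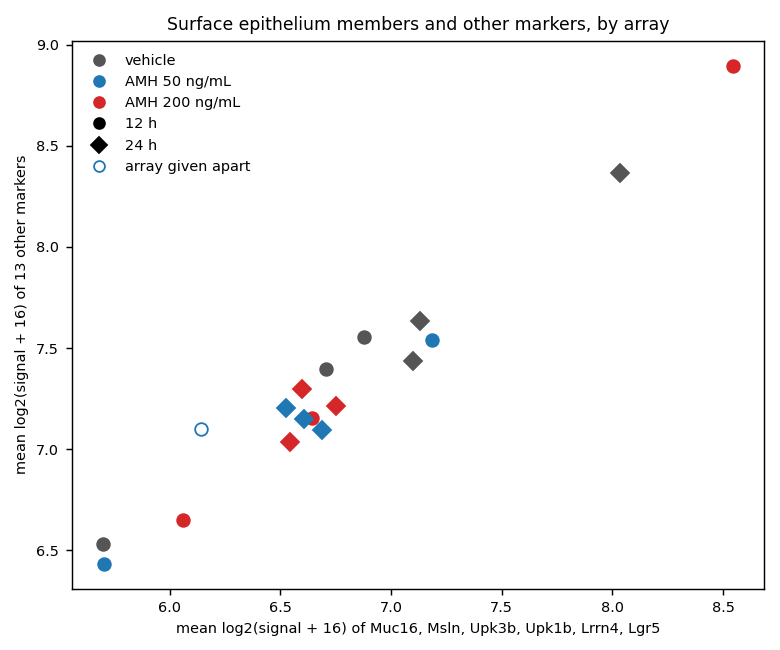
Mean log2(signal + 16) of the 6 surface epithelium members (horizontal axis) and of 13 other surface epithelium markers (vertical axis), 1 point per array, coloured by dose with circles for 12 h and diamonds for 24 h. The 17 arrays kept lie along 1 line (r = 0.99), from about the lowest 12 h arrays to AMH 200 ng/mL at 12 h in replicate 3, and the open circle is the array given apart.

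Among lists nearer to the keratins, the desmosome and tight junction genes had lower fitted values for 10 of 12 at both doses at 24 h, with medians of -0.10 and -0.16, and correlated with the keratin mean at 0.85 (0.66 without AMH 200 ng/mL at 12 h in replicate 3). Dsp, a desmosomal plaque protein, averaged 1287 with vehicle, 1060 with 50 ng/mL and 1106 with 200 ng/mL. The mean of 11 other keratins correlated with the keratin mean at 0.89 (0.70 without the same array). Of these 11, 5 were lower at 50 ng/mL and 6 at 200 ng/mL (medians 0.04 and -0.04). Krt10, the brightest, averaged 154, 148 and 126. Of 6 other mucins and uroplakins, 2 and 5 were lower. The R-spondin and Wnt list, the pathway of Lgr5, had 8 and 5 of 10 lower, with Lgr4, a receptor of the same family, at 441, 496 and 519. None of these was called at either dose.

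Markers of other cells were read beside the members, and none was called at 24 h at either dose. All 10 leukocyte markers had lower fitted values at 24 h at both doses (medians -0.56 and -0.70), and their summed signal was 968 to 2148 with vehicle, 520 to 1228 with 50 ng/mL and 410 to 1148 with 200 ng/mL. Their mean correlated with that of the 6 surface genes at 0.31 over 17 arrays. At 50 ng/mL all 9 oocyte markers were lower (median -0.93), and at 200 ng/mL 3 of 9. Oocyte sums ranged from 925 to 4535, 493 to 2564 and 860 to 4114, overlapping throughout. Of 7 granulosa cell markers, 6 and 3 were lower, with sums of 6993 to 7074, 6273 to 7365 and 6880 to 7889, and their mean correlated with the keratin mean at -0.72 over 17 arrays and at -0.40 without AMH 200 ng/mL at 12 h in replicate 3. Of 5 theca cell markers 2 and 4 were lower, of 7 endothelial markers 3 and 2, and of 6 stromal markers 0 and 4. The part of these cells in the members' values was not tested. Oviduct markers were mixed in vehicle at 24 h. Pax8, Foxj1 and Ovgp1 were dim, with averages of 1.80, 1.66 and 11.2, while Ehf and Wfdc2, the others measured, averaged 104 and 60.6. The mean of the 5 correlated over 17 arrays at 0.59 with the surface mean and 0.61 with the keratin mean. Without AMH 200 ng/mL at 12 h in replicate 3 these were 0.44 and 0.48.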

How the data were processed

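RNA of 18 follicle cultures (5 ng each, amplified and labelled with biotin, per the labels' protocols) was hybridised to Affymetrix Mouse Genome 430 2.0 arrays. The deposited table holds a linear signal intensity per probe set, computed by the authors with MAS5 per the submitters' processing notes (version not given there), and its 2% trimmed mean is 150 on every array. Values were used without further normalization, with 16 added before taking log2. Of 45101 probe sets, 64 controls were set aside. The platform annotation gave 1 symbol to 34945 of the rest, several to 932 and none to 9160. The number of arrays limits the precision.

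Titles and source names gave dose and time. The descriptions of the 12 h AMH samples say 24 h, and 12 h was used. Linear models (limma 3.58.1, R 4.3.3, eBayes with an intensity trend) were fitted to all 45037 probe sets of 17 arrays with the pool as a fixed block, which left 7 residual degrees of freedom. The protocol states the shared pool. Deviations from group means correlated at a median of 0.22 (0.05 to 0.43) in same-pool pairs and -0.10 in others. The time comparison used the 6 vehicle arrays without a block, with 4 residual degrees of freedom. Tests were two-sided, with Benjamini-Hochberg adjustment over all probe sets and a threshold of 0.05, and were tested on simulated data.

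All member probe sets are reported. Of other lists, up to 3 genes with the highest mean could be named, and all 5 measured oviduct markers were named after their values were seen. The 10 genes nearest to the surface mean and the 5 nearest to the keratin mean were added. The members and lists were chosen with earlier results of these data known. Alternatives changed the block, pseudocount (1 or 50), scaling, intensity filter, variance trend, array weights and which arrays entered, pools and vehicle arrays being omitted singly. Leaving out the AMH 200 ng/mL array of 12 h in replicate 3 was added after the data were examined. Figures used matplotlib 3.10.9 in python 3.11.15. Probe-level files were not used here.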

Additional observations from a re-analysis of the deposited data

Results flagged for a closer look

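For 3 genes at 50 ng/mL and 1 gene at 200 ng/mL, the AMH array changed side between times. It was above its vehicle array in every pool kept at 12 h and below it in every pool at 24 h. At 50 ng/mL, 20.9% of all probe sets met the 12 h part of this rule and 15.6% the 24 h part. At 200 ng/mL these shares were 10.5% and 12.4%. The share meeting both parts was not computed. The genes were picked by the sign of the same values as the changes that follow, and the doses share vehicle arrays. At 50 ng/mL the change (24 h minus 12 h) was -1.37 for Upk3b, -1.60 for Lrrn4 and -1.08 for Krt7, and at 200 ng/mL it was -1.71 for Lrrn4. The adjusted p was 1.00 for those at 50 ng/mL and 0.76 for Lrrn4 at 200 ng/mL (limma, all probe sets), so no change was called, and 2 pools entered at 12 h for 50 ng/mL. Without the AMH 200 ng/mL array of 12 h in replicate 3 the values at 50 ng/mL were -1.10 for Upk3b, -1.34 for Lrrn4 and -0.85 for Krt7, and at 200 ng/mL -1.18 for Lrrn4.

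On the array given apart, which no main comparison used, Muc16 read 251, against 13.5 to 29.1 on the vehicle arrays of 12 h.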

How the results depend on the processing

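At 24 h, all 10 genes kept a fitted value below 0 at both doses under each of the 18 alternatives. Many of these could not turn a sign, because they leave the 24 h estimates unchanged. They are the changes of block, intensity filter and variance trend, and those that only add or omit 12 h arrays. The sign could change only with another pseudocount, scaling or array weights, or without a 24 h pool. At 50 ng/mL array weights called 367 probe sets, Muc16 among them (adjusted p = 0.049), and 19 between the doses. Median centring moved the 24 h medians of the 10 genes to -0.59 and -0.71. Leaving out pools gave 0 to 4 calls at 50 ng/mL and 12 h and 0 to 7 at 200 ng/mL and 12 h, and single vehicle arrays gave 0 to 72 in the time comparison. That comparison called 532 probe sets with 17 arrays and groups only, 529 with the pool as a random block, 291 above the 50th percentile, 285 with median centring, 122 with pseudocount 1 and 0 without the trend. The arrays of a pool pair by protocol. Without the block 0 probe sets were called in any AMH comparison, and no call changed.

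Signs turned as follows, and the cause was not tested. For 200 against 50 ng/mL at 24 h, median centring gave -0.0099 for Muc16, -0.025 for Lgr5, -0.087 for Krt7 and -0.063 for Krt19, quantile normalization -0.022 for Muc16 and -0.015 for Lgr5, and array weights 0.090 for Krt18. Leaving out pools there gave -0.064 to 0.18 for Muc16, -0.17 to 0.12 for Upk3b, -0.24 to 0.14 for Upk1b, -0.090 to 0.014 for Lrrn4, -0.18 to 0.16 for Krt7, -0.34 to 0.041 for Krt18 and -0.14 to 0.22 for Krt19. At 50 ng/mL and 12 h, all 18 arrays gave -0.46 for Msln, -0.24 for Upk3b, -0.47 for Upk1b, -0.24 for Lrrn4, -0.81 for Krt7, -0.88 for Krt8, -0.34 for Krt18 and -0.27 for Krt19. No block gave -0.15 for Muc16, -0.35 for Msln, -0.14 for Upk1b, -0.11 for Krt18 and -0.073 for Krt19, the random block -0.051 for Muc16, -0.13 for Msln and -0.049 for Krt18, array weights -0.11 for Muc16 and -0.036 for Krt18, and quantile normalization -0.11 for Krt18. Leaving out pools gave -0.17 to 0.62 for Muc16, -0.048 to 0.97 for Msln, -0.0082 to 0.69 for Lgr5 and -0.12 to 0.42 for Krt18. At 200 ng/mL and 12 h, array weights gave -0.13 for Muc16, and leaving out pools -0.043 to 0.49 for Muc16, -0.18 to 1.42 for Upk1b, -0.0058 to 1.47 for Lgr5, -0.13 to 0.81 for Krt7 and -0.048 to 1.20 for Krt19. With all 18 arrays the change of the 50 ng/mL difference between times was 0.34 for Krt7, 0.62 for Krt8 and 0.0052 for Krt18. Leaving out vehicle arrays, the time difference of Krt19 was -0.094 to 0.80.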
